A study of Mus musculus with 13 samples.

Results

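The 10 genes of the neuromuscular junction described here were chosen by name: the muscle acetylcholine receptor subunits Chrna1, Chrnb1, Chrnd and Chrne, the receptor-clustering genes Rapsn, Musk, Dok7 and Lrp4, the collagen tail of synaptic acetylcholinesterase Colq, and the adhesion molecule Ncam1. All 10 members are among the 13846 genes of the authors' normalized expression sheet, and all 10 passed the filter on low values. The sheet covers 13 RNA-seq libraries of mouse tibialis anterior, a shin muscle made mostly of fast fibres. There were 5 libraries from wild-type mice (WT), 4 from mdx mice and 4 from mdxTG mice, which are mdx mice that also carry a sarcospan (SSPN) transgene. The mdx mouse carries a mutation of the dystrophin gene Dmd and is a model of Duchenne muscular dystrophy, and sarcospan spans the membrane as a member of the dystrophin-glycoprotein complex. The mdx background is shared by both diseased groups, so no group carries the transgene without the Dmd mutation. The sources used here do not give age, sex, strain, the transgene's promoter or the number of founder lines. Nothing in the labels ties each library to a separate mouse, so the p-values below reflect library-to-library spread that may be technical.

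The neuromuscular junction is where a motor axon contacts a muscle fibre. Agrin released by the nerve binds LRP4, which activates the kinase MuSK with the help of the adaptor DOK7, and rapsyn then anchors acetylcholine receptors in dense clusters. The adult receptor is built from alpha, beta, delta and epsilon subunits, and the epsilon subunit takes the place of the fetal gamma subunit (Chrng) after birth. In innervated adult muscle the nuclei beneath the synapse transcribe most receptor genes, while denervated and regenerating fibres transcribe several of them along their length. NCAM1 is likewise known as a marker of denervated and regenerating fibres, and is also made by satellite cells, axons and some Schwann cells.

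The libraries held 53.26 to 68.44 M reads, of which 41.74 to 53.87 M were counted in the listed genes, so that 3 reads correspond to 0.0504 to 0.0818 normalized CPM. Dmd was at 223 ± 55.4 normalized CPM in WT (SD, n = 5), 52.6 ± 4.44 in mdx (n = 4) and 59.2 ± 3.69 in mdxTG (n = 4). Sspn was at 118.5 ± 13.3, 114.1 ± 4.9 and 1738 ± 185 normalized CPM in the same order. Both genes therefore followed the labels, although WT replicate 2 had a Dmd level of 124.1 normalized CPM while the other WT libraries reached at least 243.7. WT replicate 1 stood apart in slow-fibre genes, with a summed level of 5454 normalized CPM over 6 genes. The highest of the other WT libraries was at 251.5. WT replicate 3 stood apart in the regenerating-fibre genes Myh3 and Mymk. Myh3 was at 39.2 normalized CPM where the other WT libraries were at 3.03 to 5.97, and Mymk at 3.81 where the next was at 0.212. The library did not stand apart in the summed level of the 7 regenerating-fibre markers. That sum was 262.5 normalized CPM there, 411.8 in WT replicate 1, 284.3 in replicate 2, 179.2 in replicate 4 and 122.2 in replicate 5. All 8 fast-fibre markers, checked against the tissue label, were in the sheet, and their summed level in each library was at least 87436.9 normalized CPM. Identifiers in the labels run consecutively within WT, while mdx and mdxTG share a separate series of them. What those numbers mean is not given, and if they mark cohorts, cohort and genotype cannot be told apart in comparisons with WT.

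The promoters of 3 receptor subunit genes are shown because their RNAs differed in the test described further on, in which Chrna1 and Chrnb1 rose in mdx and Chrne did not pass. Each line gives the 250 bases before the gene's start in RefSeq (GRCm38.p6), 5′ to 3′ on the gene's strand. Capitals mark every E-box (CANNTG, the motif bound by myogenic bHLH factors such as myogenin) and N-box (CCGGAA, an ETS-factor motif known from synaptic genes), each searched on both strands.
Chrna1: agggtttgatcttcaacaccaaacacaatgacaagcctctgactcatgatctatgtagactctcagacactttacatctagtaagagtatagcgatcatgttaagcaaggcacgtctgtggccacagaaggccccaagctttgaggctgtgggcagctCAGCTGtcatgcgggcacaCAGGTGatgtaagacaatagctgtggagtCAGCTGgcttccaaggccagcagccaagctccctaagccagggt
Chrnb1: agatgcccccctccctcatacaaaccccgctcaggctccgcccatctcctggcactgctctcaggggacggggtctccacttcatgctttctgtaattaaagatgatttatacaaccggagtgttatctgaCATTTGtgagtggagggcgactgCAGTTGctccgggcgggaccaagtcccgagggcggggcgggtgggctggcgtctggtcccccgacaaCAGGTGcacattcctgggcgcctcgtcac
Chrne: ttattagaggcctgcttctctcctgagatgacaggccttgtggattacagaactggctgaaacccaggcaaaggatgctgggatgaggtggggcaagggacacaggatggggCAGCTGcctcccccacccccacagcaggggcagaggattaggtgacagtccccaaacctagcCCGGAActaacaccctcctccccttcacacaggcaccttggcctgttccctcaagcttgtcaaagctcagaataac
The Chrna1 window lies at chr2:73580339-73580588 on the minus strand and holds 3 E-boxes, starting 92, 73 and 44 bases before the start, and no N-box. The Chrnb1 window lies at chr11:69795938-69796187 on the minus strand and also holds 3 E-boxes and no N-box. The Chrne window lies at chr11:70619195-70619444 on the minus strand and holds 1 E-box and 1 N-box, the latter starting 76 bases before the start. No E-box overlaps the N-box. Among 32851 promoter windows of the same length, 66.2% hold at least 1 E-box and 12.0% hold an N-box, so an E-box is common in any such window. The median number of E-boxes per window is 1.0. A match is a description of letters and was not tested as a site. Promoter windows were matched for 5 of the 10 members. The Musk window has 3 E-boxes, and Musk did not pass in mdx against WT. Of 2 Dok7 windows, 1 has an E-box and 1 has none, and Dok7 rose in that comparison.

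In mdx against WT, 5 of the 10 members rose, none fell and 5 did not pass the test. The 5 that rose were Chrna1, Ncam1, Chrnb1, Chrnd and Dok7. The number that fell was 0 in limma, also at an unadjusted p under 0.05, and 0 in edgeR and in DESeq2. For comparison, 34.6% of the 13831 genes tested passed in either direction, 18.5% by rising and 16.1% by falling. The groups did not overlap for 6 members, and for 26.7% of all genes. The test was limma on log2(normalized CPM + 0.5) with Benjamini-Hochberg adjustment over all genes tested and a threshold of 0.05, and every adjusted p below is from this fit unless named otherwise. The scale understates the change of genes with low values. The members' median log2 fold was 0.38, against -0.01 over all genes tested.

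In mdxTG against mdx, 3 members rose (Chrnd, Colq and Ncam1), 2 fell (Chrna1 and Chrne) and 5 did not pass. The background in this comparison was 28.4% of genes in either direction, 15.4% rising and 12.9% falling. The groups did not overlap for 7 members, and for 33.0% of all genes. The median log2 fold of the members was 0.02, against 0 over all genes. In mdxTG against WT, 7 members rose, Chrne fell, and Dok7 and Rapsn did not pass, where 54.0% of all genes tested passed in either direction, 28.7% rising and 25.3% falling. The groups did not overlap for 5 members, and for 43.2% of all genes. The median there was 1.03, against 0.02 over all genes. The 3 comparisons share libraries in pairs and are not independent of one another. In bulk RNA, fewer cells or fibres of a type and less RNA per cell cannot be told apart.

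**Figure D1:**
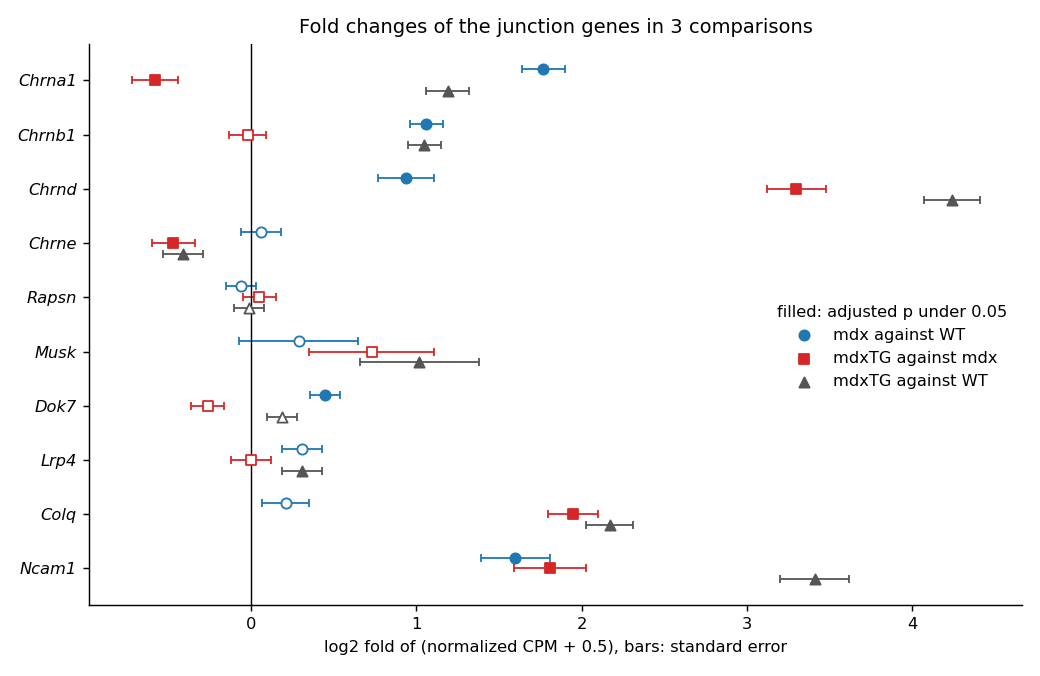
Log2 fold of (normalized CPM + 0.5) for the 10 junction genes on the x axis, with the standard error as a bar, in mdx against WT (circles), mdxTG against mdx (squares) and mdxTG against WT (triangles); filled symbols have a limma adjusted p under 0.05. Chrnd, Colq and Ncam1 lie far to the right in mdxTG, and Rapsn stays near 0 in all 3 comparisons.

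Chrna1 (chromosome 2, 73563215 to 73580338, minus strand; mm10, GENCODE M21, for all gene positions here) encodes the alpha subunit, which carries most of the acetylcholine-binding site. Its level in the 5 WT libraries was 21.0, 15.0, 22.6, 15.9 and 15.6 normalized CPM. In mdx it was 53.2, 56.3, 69.0 and 70.2, and in mdxTG 39.6, 37.0, 47.2 and 41.5. The 3 groups did not overlap, with every mdxTG library between the highest WT and the lowest mdx library. Chrna1 rose 3.41-fold in mdx against WT (log2 fold 1.77 ± 0.13 SE, adjusted p = 5.88e-07). It fell by 0.58 ± 0.14 on the log2 scale in mdxTG against mdx (adjusted p = 0.00606) and remained above WT (log2 fold 1.19 ± 0.13, adjusted p = 3.56e-06).

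Chrnb1 (chromosome 11, 69784036 to 69795943, minus strand) encodes the beta subunit, the one rapsyn-dependent clustering is known to act through. WT libraries were at 30.6, 40.8, 30.1, 31.8 and 33.1 normalized CPM, mdx libraries at 69.2, 81.8, 69.3 and 60.2, and mdxTG libraries at 76.2, 64.8, 67.8 and 67.0. Both diseased groups lay above all WT libraries and overlapped each other. The rise was 2.09-fold in mdx against WT (log2 fold 1.06 ± 0.10, adjusted p = 4.07e-06) and the log2 fold in mdxTG against WT was 1.05 ± 0.10 (adjusted p = 9.88e-07). Between mdxTG and mdx the log2 fold was -0.02 ± 0.11 (adjusted p = 0.919).

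Chrnd (chromosome 1, 87190607 to 87200070, plus strand) encodes the delta subunit, which is present in both the fetal and the adult receptor. It was at 3.55, 5.32, 6.23, 4.27 and 5.08 normalized CPM in WT, at 7.2, 8.73, 12.0 and 11.6 in mdx, and at 122.5, 94.0, 84.3 and 101.0 in mdxTG. No group overlapped another, and the lowest mdxTG library was several times above the highest mdx library. Chrnd rose 1.92-fold in mdx against WT (log2 fold 0.94 ± 0.17, adjusted p = 0.000672) and 9.82-fold in mdxTG against mdx (log2 fold 3.30 ± 0.18, adjusted p = 1.17e-08). By size of rise the latter was rank 15 of 13831 genes. The authors' deposited table gave a log2 fold of 3.34 for Chrnd in that comparison.

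Chrne (chromosome 11, 70614883 to 70619216, minus strand) encodes the adult epsilon subunit, whose RNA is normally concentrated at synaptic nuclei. It was at 20.0, 26.1, 15.6, 18.2 and 17.9 normalized CPM in WT, at 20.7, 21.2, 22.0 and 17.1 in mdx, and at 14.7, 13.9, 15.7 and 13.6 in mdxTG. The mdx libraries lay inside the WT range, and all mdxTG libraries lay below all mdx libraries. The log2 fold in mdx against WT was 0.06 ± 0.12 (adjusted p = 0.734), and with plain CPM it passed at 0.29 (adjusted p = 0.0465), with the median of all genes at 0.20. Chrne fell by 0.47 ± 0.13 on the log2 scale in mdxTG against mdx (adjusted p = 0.0148). It also fell against WT, by 0.41 ± 0.12 (adjusted p = 0.0124), but with plain CPM scaling that log2 fold was -0.04 (adjusted p = 0.761), with the median of all genes at 0.36.

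**Figure D2:**
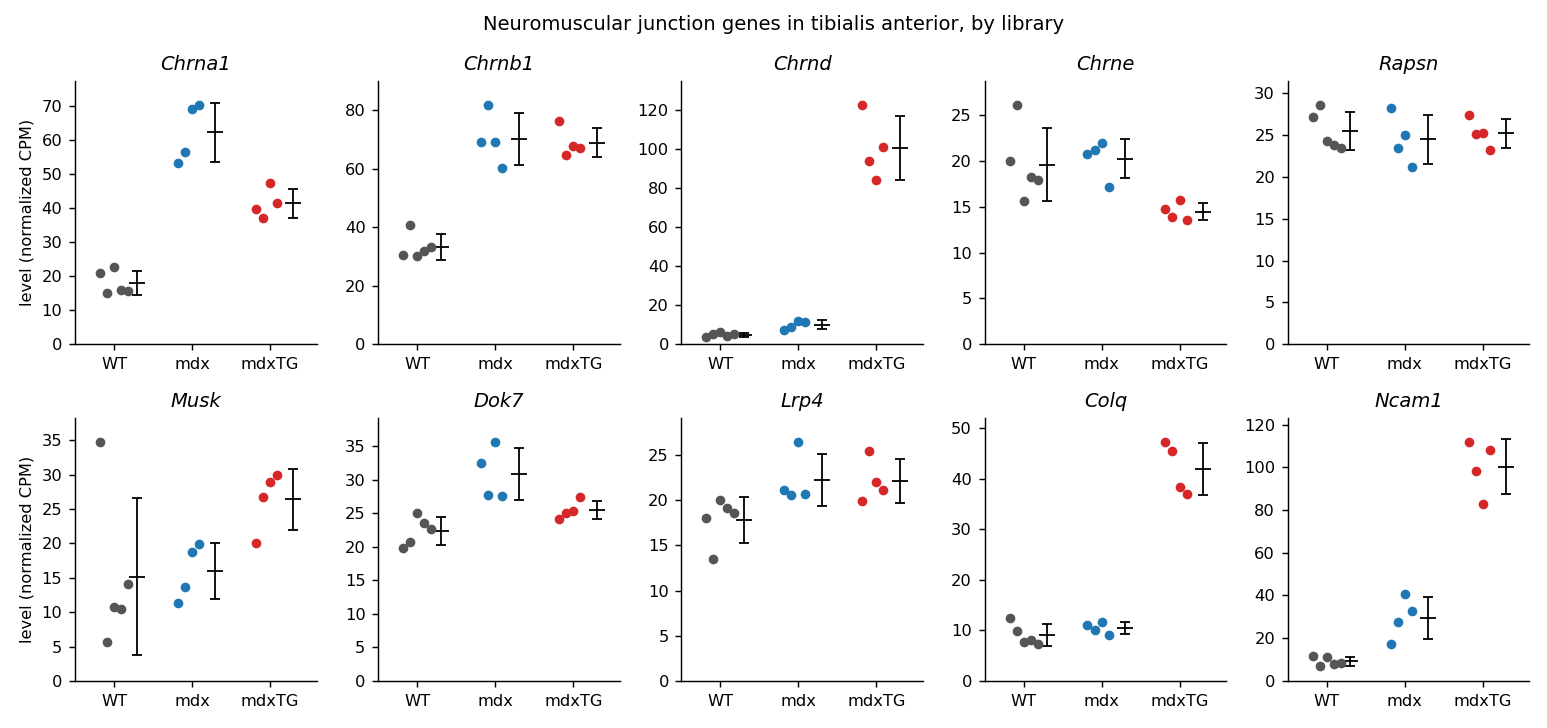
Level of each junction gene in normalized CPM (linear y axis from 0) in the 5 WT, 4 mdx and 4 mdxTG libraries; points are libraries and the bar beside them gives the mean ± SD. Chrna1 is highest in mdx, Chrnd, Colq and Ncam1 are highest in mdxTG, and Musk has 1 WT library at 34.8 normalized CPM.

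Chrng, the fetal gamma subunit (chromosome 1, 87204657 to 87212694, plus strand), starts 4586 bases past the end of Chrnd on the same strand. It was at 0.169, 0.573, 2.92, 0.212 and 0.0597 normalized CPM in WT, which are 7, 21, 111, 8 and 3 reads. In mdx it was at 4.87, 7.37, 14.8 and 13.1, and in mdxTG at 2.42, 2.06, 2.35 and 3.33. Every mdx library exceeded every WT and every mdxTG library, and WT replicate 3, the library with the high Myh3 level, lay within the mdxTG range. Chrng rose in mdx against WT (log2 fold 3.28 ± 0.45, adjusted p = 7.55e-05) and fell by 1.69 ± 0.47 in mdxTG against mdx (adjusted p = 0.0149), the comparison in which its neighbour Chrnd rose. Without WT replicate 3 the log2 fold in mdx against WT was 3.73 ± 0.30 (adjusted p = 1.8e-06). The fall in mdxTG did not pass in DESeq2 (adjusted p = 0.0775) or with a pseudocount of 0.1 (adjusted p = 0.0589). Per kilobase of exon, gamma made up 0.135 to 7.07% of gamma plus epsilon in WT (median 0.471%), 8.72 to 23.7% in mdx (median 16.9%) and 5.7 to 9.07% in mdxTG (median 6.0%). These shares were not tested, and the mdx and mdxTG ranges overlapped at their edge.

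Levels can be set beside each other across subunits only per length. The length used is the union of all annotated exons of a gene, and the annotation used for counting is not given. The order below and the gamma shares above depend on that length. In WT the mean levels per kilobase of exon were 13.2 normalized CPM for Chrnb1, 11.6 for Chrne, 4.11 for Chrna1, 1.49 for Chrnd and 0.189 for Chrng. The Chrnb1 and Chrne ranges overlapped, while Chrna1 and Chrnd followed without overlap. In mdx the order became Chrnb1 at 27.7, Chrna1 at 14.2, Chrne at 12.0, Chrnd at 3.0 and Chrng at 2.41 normalized CPM per kilobase. Chrna1 and Chrne overlapped there, as did Chrnd and Chrng. In mdxTG the order was Chrnd at 30.5, Chrnb1 at 27.2, Chrna1 at 9.42, Chrne at 8.55 and Chrng at 0.61, with overlap between Chrnd and Chrnb1 and between Chrna1 and Chrne. Chrnd thus moved from the fourth place in WT to the highest mean in mdxTG, where its range overlapped that of Chrnb1.

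Unequal movement of the subunits was tested with the log2 ratio of Chrna1 to another subunit within each library, by exact two-sided permutation tests adjusted over 9 tests. Chrna1 over Chrne was -0.11 ± 0.47 in WT (SD), 1.59 ± 0.31 in mdx and 1.48 ± 0.10 in mdxTG. The difference was 1.71 in mdx against WT (exact permutation p = 0.0079, adjusted 0.024) and 1.60 in mdxTG against WT (exact permutation p = 0.0079, adjusted 0.024). It was -0.11 in mdxTG against mdx (exact permutation p = 0.57). Chrna1 over Chrnd went from 1.78 ± 0.38 in WT to 2.61 ± 0.14 in mdx, a difference of 0.83 (exact permutation p = 0.016, adjusted 0.036). In mdxTG that ratio was -1.26 ± 0.33, a difference of -3.88 from mdx. For this last comparison of 4 against 4 libraries the exact permutation p = 0.029 is the smallest possible and was 0.051 after adjustment. The mdxTG against WT difference of -3.05 passed (exact permutation p = 0.0079, adjusted 0.024). Chrna1 over Chrnb1 differed by 0.70 in mdx against WT (exact permutation p = 0.04, adjusted 0.06), by -0.56 in mdxTG against mdx (adjusted 0.073) and by 0.14 in mdxTG against WT (adjusted 0.57). Leaving out WT replicate 1, 2, 4 or 5 gave no ratio past the threshold in either comparison with WT. Without WT replicate 3, 3 ratios passed in mdx against WT and 2 in mdxTG against WT. Leaving out mdx replicate 1 or 2 gave no ratio past the threshold in mdx against WT. The differences themselves stayed close, Chrna1 over Chrne lying between 1.54 and 1.87 in mdx against WT and between 1.43 and 1.75 in mdxTG against WT without any 1 library, and Chrna1 over Chrnd between -3.19 and -2.89 in the latter. Without a WT library both comparisons with WT have 4 libraries against 4, where the smallest exact permutation p of a single test is 0.029. Leaving out an mdx library also leaves fewer arrangements in mdx against WT. These losses therefore cannot tell whether a ratio rests on the library left out.

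**Figure D3:**
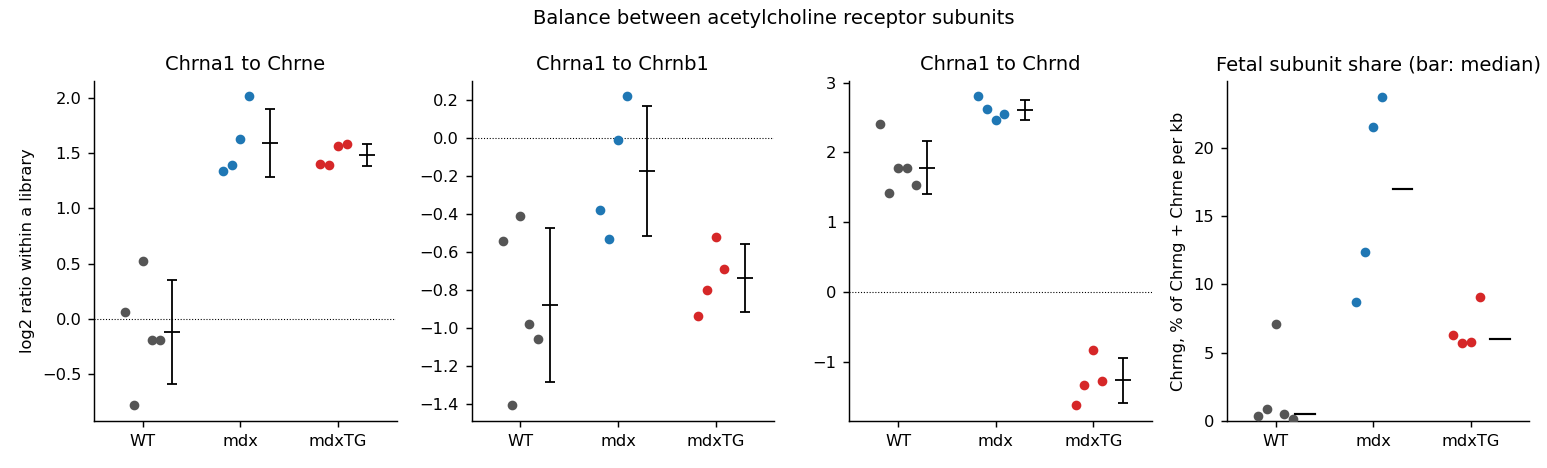
Log2 ratios of Chrna1 to Chrne, Chrnb1 and Chrnd within each library, with mean ± SD beside the points, and in the last panel the percentage of gamma in gamma plus epsilon per kilobase of exon, with the median as a bar. Chrna1 over Chrne is higher in both mdx and mdxTG than in WT, while Chrna1 over Chrnd is below 0 in the 4 mdxTG libraries alone.

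Among the clustering genes, Dok7 was the member that rose in mdx. Dok7 (chromosome 5, 35056766 to 35087839, plus strand), the adaptor that activates MuSK from inside the fibre, was at 19.8, 20.8, 25.1, 23.5 and 22.6 normalized CPM in WT. It was at 32.5, 27.7, 35.7 and 27.6 in mdx and at 24.2, 25.1, 25.4 and 27.4 in mdxTG. All mdx libraries lay above all WT and all mdxTG libraries, the margin to mdxTG being small. Dok7 rose 1.37-fold in mdx against WT (log2 fold 0.45 ± 0.09, adjusted p = 0.00171). The log2 fold in mdxTG against mdx was -0.26 ± 0.10 and missed the threshold (adjusted p = 0.0572). It passed there in edgeR's quasi-likelihood test on the recovered reads (adjusted p = 0.0476) and in DESeq2 (adjusted p = 0.0214), and also when any of 4 libraries (replicates 1 and 2 of WT, replicates 2 and 4 of mdx) was left out (limma adjusted p = 0.0404 to 0.0474).

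Musk (chromosome 4, 58285960 to 58374303, plus strand) encodes the receptor tyrosine kinase on which clustering depends. WT libraries were at 34.8, 5.64, 10.7, 10.5 and 14.1 normalized CPM, mdx libraries at 11.4, 13.6, 18.8 and 19.9, and mdxTG libraries at 20.1, 26.8, 29.0 and 29.9. The mdxTG group lay wholly above the mdx group, but WT replicate 1 exceeded every other library. That library is the one with the high slow-fibre level given above, and the part of fibre type in its Musk level was not tested. In mdxTG against WT Musk rose (log2 fold 1.02 ± 0.36, adjusted p = 0.0263), a call lost in edgeR (adjusted p = 0.0842) and in DESeq2 (adjusted p = 0.117), and lost without WT replicate 2, 3 or 4 or mdxTG replicate 2, 3 or 4 (adjusted p = 0.0527 to 0.066). Against mdx the log2 fold in mdxTG was 0.73 ± 0.38 (adjusted p = 0.17), and it passed without WT replicate 1, whose spread enters the shared fit (adjusted p = 0.0313), and in a fit of only the mdxTG and mdx libraries (adjusted p = 0.00977). In mdx against WT it was 0.29 ± 0.36 (adjusted p = 0.568).

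Lrp4 (chromosome 2, 91457511 to 91513779, plus strand), the agrin receptor, was at 18.0, 13.5, 20.0, 19.1 and 18.6 normalized CPM in WT, at 21.1, 20.6, 26.5 and 20.7 in mdx, and at 19.9, 25.5, 22.0 and 21.1 in mdxTG. The mdx libraries lay just above the WT range, and the mdxTG range overlapped it at its lower end. The log2 fold was 0.31 ± 0.12 both in mdx against WT (adjusted p = 0.0511) and in mdxTG against WT (adjusted p = 0.0373), on either side of the threshold. The first passed in edgeR (adjusted p = 0.0484) and DESeq2 (adjusted p = 0.0364), without WT replicate 3 (adjusted p = 0.0399) or mdxTG replicate 2 (adjusted p = 0.0487), and, as added after seeing the data, in the fit of only these groups with same-numbered libraries paired as a block (adjusted p = 0.0252). The second was lost without WT replicate 1 or 2 or mdxTG replicate 2, 3 or 4 (adjusted p = 0.0508 to 0.127). The log2 fold in mdxTG against mdx was -0.00 (adjusted p = 0.983).

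Rapsn (chromosome 2, 91035620 to 91045729, plus strand) encodes rapsyn, the scaffold beneath the receptors. It was at 25.5 ± 2.32 normalized CPM in WT (SD, n = 5), 24.5 ± 2.95 in mdx (n = 4) and 25.2 ± 1.71 in mdxTG (n = 4). The 3 ranges overlapped almost entirely, between 21.2 and 28.6 normalized CPM. Its log2 folds were -0.06 ± 0.09 in mdx against WT, 0.05 ± 0.10 in mdxTG against mdx and -0.01 ± 0.09 in mdxTG against WT (adjusted p = 0.647, 0.749 and 0.926). With plain CPM the last was 0.36 and passed as a rise (adjusted p = 0.00139), with the median of all genes also at 0.36 on that scale. Per kilobase Rapsn was at 14.1 normalized CPM in WT, next to Chrnb1 at 13.2, and in mdxTG it was at 14.0 with Chrnd at 30.5.

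Colq (chromosome 14, 31523082 to 31591343, minus strand) encodes the collagen that anchors acetylcholinesterase in the synaptic matrix and also binds MuSK. It was at 12.4, 9.95, 7.68, 8.03 and 7.35 normalized CPM in WT, at 11.1, 9.98, 11.6 and 9.15 in mdx, and at 47.3, 45.4, 38.3 and 36.9 in mdxTG. WT and mdx overlapped, and all mdxTG libraries stood well above both. The log2 fold in mdx against WT was 0.21 ± 0.14 (adjusted p = 0.254), and it passed without WT replicate 1 (log2 fold 0.33, adjusted p = 0.0428). Colq rose 3.87-fold in mdxTG against mdx (log2 fold 1.95 ± 0.15, adjusted p = 3.1e-07), rank 86 of the 13831 genes by size of rise. Against WT the log2 fold was 2.17 ± 0.14 (adjusted p = 1.48e-08). Colq shares 199 exon bases, or 5.2% of its exon length, with the same-strand gene model Gm49387, which is not among the listed genes. Ache, the esterase that Colq anchors, rose in mdx against WT (44.2 ± 6.52 to 70.7 ± 9.73 normalized CPM, log2 fold 0.67 ± 0.11, adjusted p = 0.000349). It was at 78.4 ± 3.73 in mdxTG, with a log2 fold of 0.16 ± 0.12 against mdx (adjusted p = 0.346).

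Ncam1 (chromosome 9, 49502136 to 49798925, minus strand) was the member that rose in all 3 comparisons together with Chrnd. It was at 11.6, 6.76, 11.3, 7.71 and 8.26 normalized CPM in WT, at 17.2, 27.5, 40.6 and 32.6 in mdx, and at 112.0, 98.4, 82.8 and 108.1 in mdxTG. No group overlapped another. Ncam1 rose 3.04-fold in mdx against WT (log2 fold 1.60 ± 0.21, adjusted p = 6.21e-05), 3.5-fold in mdxTG against mdx (1.81 ± 0.22, adjusted p = 3.47e-05) and 10.6-fold in mdxTG against WT (3.41 ± 0.21, adjusted p = 1.08e-08). Among the other cells known to make NCAM1, the 6 satellite-cell markers in the sheet had summed levels of 60.3 to 69.4 normalized CPM (WT), 78.2 to 91.5 (mdx) and 81.3 to 95.3 (mdxTG). Of these markers 2 rose and 2 fell in mdxTG against mdx. Of the 10 Schwann-cell markers in the sheet, 8 fell and 1 rose in mdx against WT, and 1 rose in mdxTG against mdx. Without both WT replicates 1 and 2, 6 fell and 0 rose in the first comparison, and 4 rose in the second. With plain CPM 6 fell and 1 rose, then 3 rose. With a replicate block 8 fell and 1 rose, then 0 rose. Over all genes, 34.6% passed in the first comparison and 28.4% in the second. The summed level of these markers was 161.4 to 403.4 normalized CPM (WT), 102.2 to 129.1 (mdx) and 136.2 to 189.1 (mdxTG). WT replicates 1 and 2 were at 403.4 and 323.8, the other WT libraries at 161.4 to 216.2. The part of satellite and Schwann cells in the Ncam1 level was not tested.

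Markers of regenerating fibres mostly moved with the subunit genes Chrna1 and Chrng. All 7 of 7, among them the embryonic myosin Myh3 and the fusion factor Mymk, rose in mdx against WT, with a median log2 fold of 2.95. In mdxTG against mdx 6 of them fell, the median log2 fold being -1.11, and Actc1, the cardiac actin of immature muscle, rose (log2 fold 0.91, adjusted p = 0.0424). Their summed level, in which Actc1 weighs heavily, was 122.2 to 411.8 normalized CPM (WT), 483.7 to 1028.1 (mdx) and 783.5 to 1043.0 (mdxTG). Chrna1 and Chrng rose and fell in the same comparisons as these 6 markers, whereas Chrnd, Colq and Ncam1 rose where they fell. The part of regenerating fibres in the receptor levels was not tested. Over all genes, 34.6% passed in mdx against WT and 28.4% in mdxTG against mdx. The 4 motor-nerve-terminal markers in the sheet, of 11, summed to 45.5 to 54.4 normalized CPM (WT), 38.0 to 47.1 (mdx) and 41.9 to 48.9 (mdxTG). Vamp1 made up most of that sum, at 34.4 to 47.4 normalized CPM across all libraries. Of the 4, Vamp1 and Stmn2 fell in mdx against WT and Sv2a rose in mdxTG against mdx, and the other 7 were not analysed here.

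Of 12 genes of the synaptic matrix, the esterase and the fetal subunit, 5 rose and 1 fell in mdx against WT, where 34.6% of all genes passed. Col4a5, a synaptic basement membrane collagen chain, rose with a log2 fold of 1.12 ± 0.12 (adjusted p = 1.21e-05). None of the 12 rose and 2 fell in mdxTG against mdx, Chrng and Col4a3 (-0.43 ± 0.15, adjusted p = 0.0454). At an unadjusted p under 0.05 limma likewise gave 0 that rose, as did edgeR and DESeq2 after adjustment. Agrn, the gene of agrin, was at 34.2 ± 6.36 normalized CPM in WT, 32.5 ± 1.54 in mdx and 27.9 ± 1.99 in mdxTG, and passed neither in mdx against WT (log2 fold -0.06 ± 0.11, adjusted p = 0.717) nor in mdxTG against mdx (-0.22 ± 0.11, adjusted p = 0.167). Agrn fell in mdxTG against WT (-0.28 ± 0.11, adjusted p = 0.0407). That call was lost with plain CPM (0.10, adjusted p = 0.447) and without WT replicate 4 or mdxTG replicate 1, 2 or 3 (adjusted p = 0.0551 to 0.119). In mdxTG against WT 6 of the 12 rose and 4 fell, where 54.0% of all genes passed.

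Of 13 genes listed for signalling downstream of MuSK, 6 rose and 2 fell in mdx against WT, where 34.6% of all genes passed. Pak1, a kinase activated by Rac and Cdc42, had a log2 fold of 1.09 ± 0.12 (adjusted p = 1.69e-05). Against mdx, 3 rose and 1 fell in mdxTG, near the 28.4% of all genes that passed there. Cttn, the actin-binding protein cortactin, was at 28.4 ± 1.92 normalized CPM in WT, 38.8 ± 2.06 in mdx and 81.5 ± 2.87 in mdxTG, and rose in both steps (log2 fold 0.44 ± 0.07, adjusted p = 0.000168, then 1.06 ± 0.07, adjusted p = 8.95e-08). Fyn, a Src-family kinase, rose in mdxTG against mdx (log2 fold 0.78 ± 0.13, adjusted p = 0.000457). The count of 6 that rose and 2 that fell in mdxTG against WT was likewise near the 54.0% of all genes.

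The neuregulin receptors and ETS factors, which are known to act on synaptic transcription, had 7 of 9 genes in the sheet. Of these 2 rose and none fell in mdx against WT, namely Etv4 (log2 fold 0.89 ± 0.13, adjusted p = 0.000133) and Erbb2 (0.69 ± 0.13, adjusted p = 0.000843). The number that fell was 0 in limma at an unadjusted p under 0.05 as well, and 0 in edgeR and DESeq2. Over all genes 34.6% passed in that comparison, 18.5% by rising and 16.1% by falling. In mdxTG against mdx 2 rose and 2 fell, the latter being Erbb3 (-0.59 ± 0.12, adjusted p = 0.00149) and Gabpb2 (-0.31 ± 0.07, adjusted p = 0.00425). In mdxTG against WT 3 rose and 2 fell. The share of all genes that passed was 28.4% in mdxTG against mdx and 54.0% in mdxTG against WT. Nrg1 and Erbb4 were not analysed here. Of 5 glycosylation genes whose human mutations cause congenital myasthenia, 0 passed in mdx against WT by limma, edgeR or DESeq2, with 2 at an unadjusted limma p under 0.05. In limma 1, Gmppb, rose in mdxTG against mdx (log2 fold 0.35 ± 0.11, adjusted p = 0.0275), and against WT 2 rose and 1 fell. The shares of all genes just given hold for these counts too.

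Of 9 genes known to respond to denervation and activity, 6 rose and 2 fell in mdx against WT, where 34.6% of all genes passed. Their median log2 fold was 0.67. Runx1, a transcription factor induced by denervation, went from 3.85 ± 0.999 to 20.7 ± 3.92 normalized CPM (log2 fold 2.30 ± 0.15, adjusted p = 2.16e-07). Dach2, known as a repressor of myogenin that declines on denervation, fell by 1.97 ± 0.16 (adjusted p = 1.11e-06). Then 4 of the 9 rose in mdxTG against mdx, where 28.4% of all genes passed. In that comparison 0 of them fell in limma, with 2 lower at an unadjusted p under 0.05, 0 in edgeR and 1 in DESeq2. Without both WT replicates 1 and 2, 2 fell, and 2 also fell with a replicate block. Cdkn1a, a cell-cycle inhibitor, rose from 41.9 ± 7.75 to 109.8 ± 20.6 normalized CPM (log2 fold 1.38 ± 0.17, adjusted p = 4.24e-05). Hdac4, a histone deacetylase known to relay denervation to synaptic genes, rose from 40.5 ± 5.37 to 58.6 ± 8.8 (log2 fold 0.52 ± 0.13, adjusted p = 0.00883). In mdxTG against WT 6 of the 9 rose and 2 fell, where 54.0% of all genes passed.

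**Figure D4:**
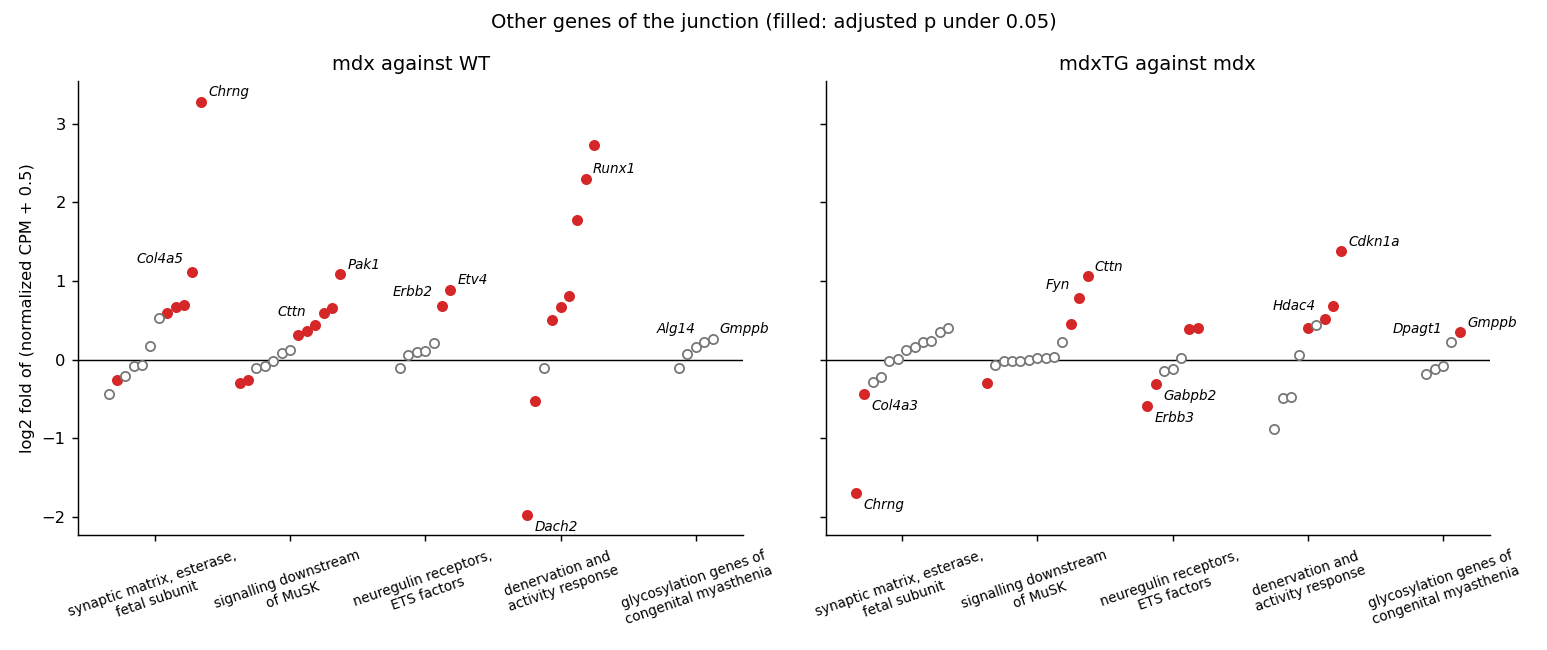
Log2 fold of (normalized CPM + 0.5) for other genes, by list, in mdx against WT (left) and mdxTG against mdx (right). The lists cover the synaptic matrix, signalling downstream of MuSK, neuregulin receptors and ETS factors, denervation and activity response, and glycosylation. Each point is a gene, filled where the limma adjusted p is under 0.05. The 2 genes with the smallest p of each list are named. Chrng is high on the left and low on the right, while Cttn, Fyn and Cdkn1a are the named genes highest on the right.

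The genes whose levels followed 3 members most closely over the 13 libraries were looked up among 12974 genes by Pearson's r of log2(normalized CPM + 0.5). The libraries share their genotype groups and scaling, so these r values are descriptions. For Chrna1 they were Prc1 (r = 0.979), Tnnt2 (0.973) and Lmnb2 (0.973). For Musk they were Nin (0.931), Inpp4b (0.921) and Actn2 (0.917), and for Chrne they were Gm46430 (0.933), Pmf1 (0.932) and Tra2a (0.92). Among the members themselves, Chrnd with Ncam1 and Chrnd with Colq each had r = 0.95, and Chrna1 with Chrnb1 had r = 0.86.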

How the data were processed

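Libraries came from a stranded mRNA kit after TRIzol and RNeasy extraction, per the labels' protocols. The tools named are bcl2fastq 2.17, STAR and edgeR, with build mm10, per the submitters' processing notes. The sources used here do not state how reads were counted, on which strand or with which annotation. The authors deposited a read count per library and, as the expression sheet, a normalized signal named CPM. This deposited signal is the reads of a gene over an effective library size: divided by the library's smallest step, 100% of them were whole reads to a tolerance of 0.001 (largest deviation 7.5e-09), although for 3 mdxTG libraries few low values were available to check that step. The scaling factors this implies lie at 0.831 to 0.932 (WT), 1.006 to 1.068 (mdx) and 1.107 to 1.191 (mdxTG). The authors' deposited comparison tables give log2 fold changes and adjusted p-values of genes past an adjusted p of 0.01 and a log2 fold of 1; 4 members are in the one for mdx against WT, 3 in that for mdxTG against mdx and 5 in that for mdxTG against WT.

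The members and lists were chosen with earlier results of these data known. Genes with at least 0.5 normalized CPM in 4 libraries (13831 of 13846) were tested with limma 3.58.1 (trended empirical Bayes, two-sided, R 4.3.3) on log2(value + 0.5), all 13 libraries in 1 fit, with Benjamini-Hochberg adjustment over all genes. Subunit ratios had exact permutation tests. Named genes were the members, Dmd, Sspn, Chrng, Ache, Agrn, the 2 genes of smallest p in each list and comparison, and the 3 genes most like Chrna1, Chrne and Musk; any other gene was named after its values were seen. A gene of the denervation list is not reported here and is left out of that list's counts. Replicates of a group differed by more than sampling noise (chi-square per degree of freedom 24.2 to 181). Same-numbered mdx and WT libraries deviated together (correlations 0.34, 0.45, 0.33 and 0.18), which meets the rule set for pairing. However, mdx replicate 4 correlated most with WT replicate 3 among the WT libraries compared. The pairing comes from the data, since the labels give only numbers. The results given are nonetheless from unpaired fits, and the pairing enters as an alternative. In mdxTG against mdx the correlations were 0.41, -0.36, -0.19 and 0.32, and those libraries do not meet the rule. Alternatives were pseudocounts of 0.1 and 1, no filter, plain CPM, a replicate block, only the groups compared, edgeR 4.0.16 and DESeq2 1.42.0 on the recovered reads, and each library left out. After seeing the data, a block within the groups compared and the removal of both WT replicates 1 and 2 were added, the latter for their slow-fibre and Dmd levels. The scripts were tested on simulated data.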

Additional observations from a re-analysis of the deposited data

Results flagged for a closer look

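In 3 of 30 groups of a member's levels, 1 library lay far from the others relative to the group's range; chance gives such a library in about 1 group in 20. Chrnb1 in WT replicate 2 was at 40.8 normalized CPM, with the nearest WT library at 33.1. Musk in WT replicate 1 was at 34.8 normalized CPM, with the nearest at 14.1. Lrp4 in mdx replicate 3 was at 26.5 normalized CPM, with the nearest mdx library at 21.1.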

How the results depend on the processing

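The calls of Chrna1, Chrnb1, Chrnd and Ncam1 in the comparisons where they passed, of Dok7 in mdx against WT, of Chrne in mdxTG against mdx and of Colq in both mdxTG comparisons held under every alternative run. With plain CPM, where the median log2 fold of all genes moved to 0.20 for mdx against WT, to 0.13 for mdxTG against mdx and to 0.36 for mdxTG against WT, 8 members passed in mdx against WT, all 8 by rising, and 9 rose and 0 fell in mdxTG against WT, where Rapsn (log2 fold 0.36, adjusted p = 0.00139) and Dok7 (0.56, adjusted p = 0.000244) passed. The share of calls that were rises went from 53.5% to 87.5%, from 54.4% to 78.1% and from 53.1% to 87.0% over all genes. Without 1 library, 5 to 6, 5 to 7 and 6 to 8 members passed in the 3 comparisons, in the same order. The subunit ratios past the threshold, 2, 0 and 2, ranged from 0 to 3 in mdx against WT, from 0 to 1 in mdxTG against mdx and from 0 to 2 in mdxTG against WT without 1 library. Their number in mdx against WT was 1 with a pseudocount of 0.1. It was 0 in mdx against WT and 0 in mdxTG against WT without both WT replicates 1 and 2, where 3 against 4 libraries allow no p below 0.029 before adjustment. With same-numbered libraries paired as a replicate block it was likewise 0 and 0, since 4 pairs allow no p below 0.125. Chrna1 over Chrne in mdxTG against mdx ranged from -0.19 to 0.03, the latter without mdx replicate 4. Beside Lrp4 in mdx against WT, named above, the block changed no call of a member in that comparison. The numbers do not pair the mdxTG libraries; a block within the groups compared gave 6 called members in mdxTG against WT in place of 8, with Musk (adjusted p = 0.059) and Lrp4 (adjusted p = 0.104) not passing, and 6 in place of 5 in mdxTG against mdx, with Musk passing (adjusted p = 0.000654).

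Musk, Lrp4 and, in mdxTG against mdx, Dok7 lie near the threshold, and their calls move with single libraries. The libraries were deep enough that counting error is small for every member; it matters for Chrng in WT, where 1 library had 3 reads. The counting's strand setting is not given, so the 4.8% of Ncam1 exon bases shared with the antisense model Gm11149 cannot be assigned.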

Other observations

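Chosen after the values were seen, the genes most like Chrnd over the 13 libraries were Stx11 (r = 0.995), Hexa (0.995) and Cpne2 (0.994). Cpne2, a calcium-dependent membrane-binding copine, had mean levels of 7.43, 12.4 and 87.9 normalized CPM in WT, mdx and mdxTG. Hexa, a subunit of a lysosomal hexosaminidase, was at 48.1, 61.5 and 141.2 in the same order. The genes most like Colq were Relb (0.989), Wsb2 (0.989) and Uchl1 (0.987). Uchl1, a ubiquitin hydrolase abundant in neurons, was at 3.2 normalized CPM in WT, 3.27 in mdx and 69.8 in mdxTG. It was picked for its likeness to Colq over these libraries, so sharing the group contrast of Colq follows from that choice. These r values carry no p, since the libraries share their groups.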
